A study of Homo sapiens with 6 samples.

Results

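The data described here are the transcript levels of 9 complement genes in M14 melanoma cells with and without knockdown of STAG2. The genes are the C1 proteases C1R and C1S, the central component C3, the alternative pathway protease CFB (factor B), the soluble regulators CFI (factor I) and SERPING1 (C1 inhibitor), and the membrane regulators CD46, CD55 and CD59. They were chosen by symbol as components and regulators of complement, and make up 9 of the 57820 genes in the table. Of these, 8 were among the 15605 genes with enough counts to be tested, and SERPING1 was not.

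Complement is a cascade of plasma proteases that tags and lyses cells. The classical pathway starts when C1q binds to a surface, upon which C1r activates C1s and C1s cleaves C4 and C2, the alternative pathway amplifies deposited C3b through factor B, and all routes meet at the cleavage of C3 and end in the membrane attack complex. Nucleated cells protect themselves with CD46, a cofactor for the cleavage of C3b and C4b by factor I, with CD55 (decay-accelerating factor), which dissociates the C3 convertases, and with CD59, which blocks assembly of the membrane attack complex. Tumor cells often carry these membrane proteins. The liver is the main source of the soluble proteins, but many other cells make some of them, and several complement genes are known to respond to interferon.

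STAG2 is a subunit of cohesin, and the study asked which genes respond to its loss in melanoma. All cells were M14, a human melanoma line, and carried a doxycycline-inducible STAG2 shRNA. The paper lists hygromycin, blasticidin or puromycin for keeping stable populations, without naming the drug for this line. Cells kept without doxycycline (WT) gave 3 libraries, and cells given doxycycline for 5 days (KD) gave another 3. The WT cells are thus labelled wild type but carry the same uninduced hairpin construct, and effects of doxycycline and of the hairpin cannot be told apart here. Polyadenylated RNA was sequenced from bulk cultures, in which fewer cells expressing a gene and less RNA per cell cannot be told apart.

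Totals ranged from 24895998 to 35181733 expected counts per library, and levels are given as CPM, the counts relative to a library total corrected by the TMM method. On this scale 3 counts were worth 0.0869 to 0.112. STAG2 itself was at 66.4, 34.7 and 28.8 CPM in WT replicates 1 to 3 and at 15.9, 7.30 and 6.69 CPM in KD replicates 1 to 3, and was reduced in KD by 2.12 on the log2 scale (adjusted p = 0.0342). IRF9, the interferon signaling gene on which the study centers, rose from 20.1 ± 1.28 to 127 ± 3.60 CPM (mean ± SD, n = 3 libraries, as for all such values here). The libraries numbered 1 stood apart in both conditions. Mitochondrial genes took 5.07% of counts in WT replicate 1 against 2.12% to 2.94% in the other libraries, and the summed level of 8 melanocyte lineage markers was 6302 CPM in WT replicate 1 and 2603 CPM in KD replicate 1, against 1194 to 1914 CPM in the other 4. All 8 of these markers were tested, and 1 of them, S100B, was lower in KD (log2 fold change -1.35, adjusted p = 0.00949), or 6 with the replicate number as a block. Of the 6 hepatocyte markers, ALB, TTR and FGB were at 0 in every library, and SERPINA1, the 1 that was tested, was not called (adjusted p = 0.860).

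In the comparison of KD with WT, 1 of the 8 tested complement genes was called by the edgeR quasi-likelihood test at an adjusted p under 0.05, which was CD55, in the upward direction. Over all tested genes, 404 (2.59%) were called, 273 higher and 131 lower. CD55 was also called with the replicate block, under which 9.52% of tested genes were called. The groups did not overlap for 3 of the 8, CD55 and CFB with all KD libraries the higher and CFI with all KD libraries the lower, against 22.3% of all tested genes. The median log2 fold change of the 8 was -0.12, beside -0.03 over all tested genes, and 4 of the 8 were above 0. The members therefore did not move in one direction, and the values are given below by role.

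**Figure D1:**
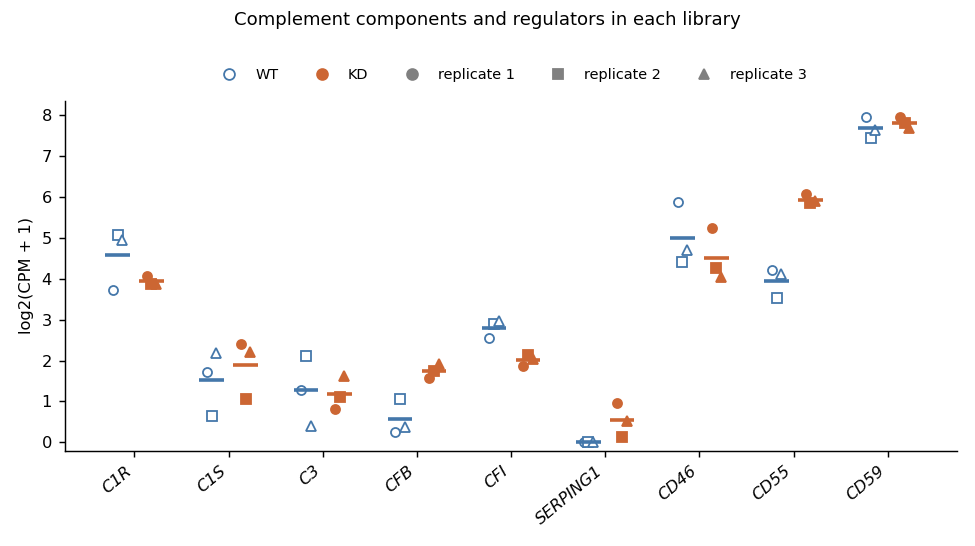
Levels of the 9 complement genes in each library, as log2(CPM + 1) on the vertical axis, with open blue symbols for WT, filled orange symbols for KD, the symbol shape for the replicate number and a bar for the mean of the 3 log2 values. CD55 is the gene with the clearest gap between conditions, at 10.6 to 17.5 CPM in WT and 56.7 to 66.1 CPM in KD, while SERPING1 is at 0 in the 3 WT libraries.

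CD55 (ENSG00000196352, chromosome 1, 207494864 to 207560149, plus strand, GRCh37) was at 17.5, 10.6 and 16.4 CPM in WT replicates 1 to 3. In KD replicates 1 to 3 it was at 66.1, 56.7 and 58.2 CPM. The KD libraries all lay far over the WT libraries, and the spread within each condition was small beside the gap. The means were 14.8 ± 3.72 and 60.3 ± 5.06 CPM, a 4.07-fold difference, and the fitted log2 fold change was 2.02 (SE 0.25, 95% interval 1.47 to 2.58, adjusted p = 0.00237). Within each replicate number, KD exceeded WT by 1.86, 2.32 and 1.76 on the log2(CPM + 1) scale. The call held in all 13 alternatives planned, with log2 fold changes of 1.83 to 2.15 and adjusted p up to 0.0189. With 2 libraries per condition left, it held without both libraries numbered 1 (2.10, adjusted p = 0.00433), but not without both numbered 2 (1.87, adjusted p = 0.0831) or both numbered 3 (2.11, adjusted p = 0.170).

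The bases upstream of the first annotated CD55 exon are shown because CD55 was the 1 of the 9 members that was called. They lie at chr1:207494773-207494863 on the plus strand of GRCh37 and end 159 bases before the start that RefSeq gives.
CD55: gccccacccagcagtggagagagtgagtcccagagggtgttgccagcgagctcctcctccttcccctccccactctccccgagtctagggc
The RefSeq promoter window of CD55 (GRCh38.p14, 250 bases before to 50 after the start) was searched on both strands for the interferon-stimulated response element (ISRE, GAAANNGAAA), the gamma-activated sequence (GAS, TTCNNNGAA), the NF-kB motif and the Sp1 GC box (GGGCGG). It held the Sp1 box, as did 45.0% of all 35116 windows, and no match to the other motifs, which occurred in 3.57%, 7.66% and 11.3% of windows. These are matches of letters and not measured binding sites.

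CD59 (ENSG00000085063, chromosome 11, 33724556 to 33758025, minus strand) had the highest level of the 9 genes, also per kb of transcript. It was at 247, 173 and 196 CPM in WT and at 245, 224 and 203 CPM in KD. The conditions overlapped, and the difference was within the spread between libraries (log2 fold change 0.12, SE 0.20, 95% interval -0.33 to 0.57, adjusted p = 0.859). The interval excludes a change of the size seen for CD55.

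CD46 (ENSG00000117335, chromosome 1, 207925382 to 207968858, plus strand) was at 57.8, 20.4 and 25.2 CPM in WT and at 36.99, 18.2 and 15.4 CPM in KD. In both conditions the library numbered 1 was the highest, above the other libraries of either condition. KD was below WT within each replicate number, by 0.63, 0.15 and 0.68 on the log2(CPM + 1) scale, but the difference was not called (log2 fold change -0.55, SE 0.45, adjusted p = 0.668), nor with the replicate block (adjusted p = 0.146). Without WT replicate 1 the log2 fold change was 0.032, and without both libraries numbered 1 it was -0.43 (adjusted p = 0.361).

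The balance among the membrane regulators shifted with CD55. Divided by transcript length (CPM per kb), the ratio of CD55 to CD46 was 0.388, 0.666 and 0.835 for the WT libraries and 2.29, 3.99 and 4.85 for the KD libraries, each in the order of their numbers, so CD55 passed from the less to the more abundant of the pair in every library. The ratio of CD55 to CD59 was 0.178 to 0.245 in WT and 0.739 to 0.837 in KD, and CD59 stayed the higher. Of the summed CPM per kb of CD46, CD55 and CD59, CD55 made up 11.9% to 15.9% in WT and 36.97% to 41.7% in KD. The sum itself overlapped between conditions, at 33.1 to 56.8 CPM per kb in WT and 54.0 to 69.0 CPM per kb in KD.

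C1R and C1S encode the proteases that C1q activates. C1R (ENSG00000159403, chromosome 12, 7187513 to 7245203, minus strand) was at 12.3, 32.3 and 30.0 CPM in WT and at 15.8, 13.7 and 13.7 CPM in KD. WT replicate 1 was the lowest of the 6 libraries, whereas the other WT libraries were above all KD libraries. The means were 24.9 ± 11.0 and 14.4 ± 1.18 CPM, and the difference was not called (log2 fold change -0.79, SE 0.36, adjusted p = 0.342), nor with the replicate block (adjusted p = 0.229). This result rests on WT replicate 1. Without that library C1R was called lower in KD (log2 fold change -1.12, adjusted p = 0.0284, with 3.22% of 16509 tested genes called). Without both libraries numbered 1 it was also called (-1.18, adjusted p = 0.0206, with 4.73% of tested genes called). Within replicate numbers, the KD minus WT difference was 0.34, -1.18 and -1.08 on the log2(CPM + 1) scale. Part of C1R (672 exonic bases) is shared with C1RL on the same strand, so the division of reads between them is uncertain. C1RL lay higher in all KD libraries, at 17.3, 26.2 and 21.3 CPM in WT and at 41.4, 48.3 and 34.0 CPM in KD. It was not called (log2 fold change 0.93, adjusted p = 0.0912), but was with the replicate block (adjusted p = 0.0133). Whether the lower C1R reflects that division of reads was not tested.

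C1S (ENSG00000182326, chromosome 12, 7096351 to 7178336, plus strand) was at 2.31, 0.551 and 3.53 CPM in WT and at 4.32, 1.08 and 3.61 CPM in KD. The library numbered 2 was the lowest in both conditions, and the conditions overlapped (log2 fold change 0.50, SE 0.81, adjusted p = 0.859). The ratio of C1R to C1S, both per kb of transcript, ran from 6.76 to 74.5 in WT and from 4.63 to 16.1 in KD. The highest ratio was that of WT replicate 2, where C1S had 19 counts. The ratio thus varied across these libraries, but no counting error was put on it.

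C3 (ENSG00000125730, chromosome 19, 6677715 to 6730573, minus strand), on which all the pathways converge, was low. It was at 1.44, 3.33 and 0.327 CPM in WT and at 0.752, 1.15 and 2.09 CPM in KD. The highest and the lowest library were both WT, and the replicate numbers differed in direction (log2 fold change -0.36, SE 0.97, 95% interval -2.54 to 1.82, adjusted p = 0.922). Without WT replicate 2 the log2 fold change was 0.57, so its sign rests on that library. A change in C3 was not detectable at this depth and spread.

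CFB (ENSG00000243649, chromosome 6, 31913427 to 31919863, plus strand) encodes the protease of the alternative pathway C3 convertase. It was at 0.186, 1.10 and 0.291 CPM in WT (5, 38 and 8 counts) and at 1.99, 2.37 and 2.75 CPM in KD (64, 70 and 90 counts). All KD libraries were above all WT libraries, and the KD libraries were close to each other. The means were 0.526 ± 0.501 and 2.37 ± 0.381 CPM, a 4.50-fold difference that rested on far fewer counts than that of CD55. The fitted log2 fold change was 2.15 (SE 0.95, 95% interval 0.02 to 4.28), and the difference did not pass after adjustment (edgeR unadjusted p = 0.0480, adjusted p = 0.332, and 0.213 with the replicate block). The log2 fold change was between 1.73 and 3.29 over the 15 alternatives in which CFB was tested, with no call in any. The exact two-sided permutation p over libraries was 0.1, the smallest that 3 against 3 libraries can give. A second row under the same symbol (ENSG00000244255), which shares 2249 exonic bases with it, was at 0 in every library.

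The bases of the CFB window that precede the first annotated exon inside it are shown. This was the gene whose window held a match to the ISRE, and that match is in capitals. The bases lie at chr6:31913622-31913751 on the plus strand of GRCh37 and end 120 bases before the RefSeq start. The annotated CFB gene starts at 31913427, so the stretch lies inside the gene, between annotated exons, and not upstream of it.
CFB: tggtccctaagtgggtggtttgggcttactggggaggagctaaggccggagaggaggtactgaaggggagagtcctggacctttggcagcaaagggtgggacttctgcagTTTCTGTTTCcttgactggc
The ISRE match was on the minus strand, beginning 140 bases before the RefSeq start, and a match to the NF-kB motif began 112 bases and one to the GAS 92 bases before it. RefSeq windows were held for 6 of the 9 members, namely C1R, CFB, CFI, CD46, CD55 and CD59. C1R and CD46 had 2 windows each, CD59 had 4 and the others 1, or 11 in all. Among these 6 genes, CFB was the single one with an ISRE or NF-kB match. A GAS match was in 1 of 2 windows of C1R, 2 of 4 of CD59 and that of CFB. An Sp1 box was in 2 of 2 windows of CD46, 2 of 4 of CD59 and that of CD55. The shares over all windows given above are per window, not per gene. The window of CFI held none of the 4 motifs. The windows of CD55, which was called, and of CFB, which was not called but whose groups did not overlap, shared no match to these motifs. Shared regulation of the genes was not tested.

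CFI (ENSG00000205403, chromosome 4, 110652164 to 110723306, minus strand), the protease that inactivates C3b and C4b with CD46 as a cofactor, was at 4.85, 6.41 and 6.77 CPM in WT and at 2.67, 3.38 and 3.09 CPM in KD. The KD libraries all lay under the WT libraries, and within replicate numbers KD was lower by 0.67, 0.76 and 0.93 on the log2(CPM + 1) scale. The means were 6.01 ± 1.02 and 3.05 ± 0.355 CPM. The log2 fold change was -0.98 (SE 0.42, 95% interval -1.93 to -0.03) and was not called (edgeR unadjusted p = 0.0449, adjusted p = 0.322, and 0.215 with the replicate block). Over all 16 alternatives it stayed between -1.11 and -0.89, with no call.

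SERPING1 (ENSG00000149131, chromosome 11, 57364860 to 57386644, plus strand), the inhibitor of C1r and C1s, had 0 counts in each WT library. In KD replicates 1 to 3 it had 31, 3 and 14 counts, or 0.964, 0.101 and 0.428 CPM. It was thus detected in all KD libraries and in no WT library, although in KD replicate 2 it was at the floor of 3 counts. Against a floor of 3 counts in each WT library, the KD mean was at least 4.85-fold higher, or at least 2.58-fold without KD replicate 1. It fell below the low-count filter and was not tested, and when the filter was left out it was not called (edgeR unadjusted p = 0.0370, adjusted p = 0.346).

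**Figure D2:**
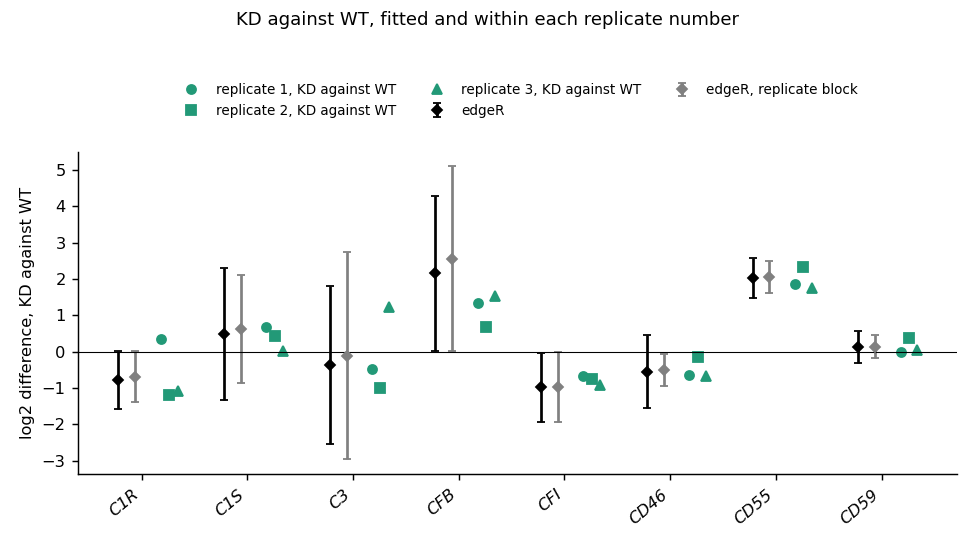
Differences between KD and WT on the log2 scale for the 8 tested complement genes, with black and grey diamonds for the edgeR log2 fold change without and with the replicate block, bars for the 95% interval, and green symbols for the KD minus WT difference in log2(CPM + 1) within each replicate number. CD55 lies above 0 throughout, at 1.76 to 2.32 within replicate numbers, whereas C1R lies above 0 for replicate 1 (0.34) and below it for the others.

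On the scale of CPM per kb, the order of the members was not the same in both conditions. In WT, the mean levels were 27.2 CPM per kb for CD59, 11.8 for C1R, 10.4 for CD46, 5.73 for CD55, 3.04 for CFI, 0.794 for C1S, 0.325 for C3, 0.212 for CFB and 0 for SERPING1. The ranges of C1R, CD46 and CD55 overlapped from each to the next, as did those of C1S, C3 and CFB. In KD, CD55 was the second, at 23.3 CPM per kb after CD59 at 29.6, with no overlap between them, and it was apart from CD46 at 7.09 and C1R at 6.81, which overlapped. CFI at 1.54, C1S at 1.12 and CFB at 0.957 CPM per kb overlapped in that order, as did SERPING1 at 0.272 and C3 at 0.254. No canonical transcript was marked for C1R in the annotation used, so its length was that of the longest basic transcript and its place in the order is less certain.

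Several of these genes sit in clusters with other complement genes, and the calls and levels of the neighbors are given with them. CD55 and CD46 lie in the cluster of regulators of complement activation on chromosome 1, 365 kb apart. Between them, CR2 and CR1 were at 0 in all libraries and CR1L was at 0 in 4 of 6, so that of this stretch CD55 rose, CD46 was not called and the receptors were not detected. C1S and C1R lie 9.18 kb apart on chromosome 12. Beside CFB on chromosome 6, C2 was between 0 and 2.13 CPM with the conditions overlapping. C4A had means of 3.75 CPM for WT against 0.769 CPM for KD (adjusted p = 0.142, not called), but C4A and C4B are near-identical and share reads, and they summed to 5.70 ± 1.68 CPM for WT against 3.22 ± 0.112 CPM for KD (exact permutation p = 0.1). Of the 14 tested protein-coding genes overlapping or next to a member without being one, 1 was called, against 2.59% of all tested genes. Under the replicate block 2 were called (with C1RL), against 9.52% of all tested genes. The gene called in the main test was UBE2L6, 29.1 kb from SERPING1. It encodes a conjugating enzyme of the interferon-induced modifier ISG15 and rose from a mean of 87.6 to 475 CPM (log2 fold change 2.44, SE 0.27, adjusted p = 0.00132).

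The rest of the pathway was read from a list of 49 other complement genes, of which 23 were at 0 in every library and 17 were tested. Of the 17, 2 were called higher and 1 lower, where 2.59% of all tested genes were called. The median log2 fold change was 0.73, beside -0.03 over all tested genes, and 10 were above 0. The groups did not overlap for 8 of them, against 22.3% of all tested genes. With the replicate block, 5 were called higher and 1 lower, against 9.52% called over all tested genes. The added genes were C1RL, a C1r-like protease (adjusted p = 0.0133), CLU, the terminal pathway inhibitor clusterin (adjusted p = 0.000802), and C5AR1, a C5a receptor (adjusted p = 0.0248).

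The called genes were receptors and a plasma enzyme. C3AR1, the receptor for the anaphylatoxin C3a, was at 1.27, 2.70 and 4.55 CPM in WT and at 13.8, 21.9 and 28.2 CPM in KD (log2 fold change 2.91, SE 0.49, adjusted p = 0.0150). ITGAX, the alpha chain of complement receptor CR4, was at 2.39, 3.24 and 2.45 CPM in WT and at 14.8, 13.8 and 11.3 CPM in KD (2.30, SE 0.35, adjusted p = 0.00832). Neither gene overlapped between the conditions. ITGB2, the beta chain with which ITGAX pairs, was at most 1.15 CPM in any library and was not called (adjusted p = 0.764). CPN1, the catalytic subunit of the carboxypeptidase that inactivates anaphylatoxins, was at 31.0, 12.7 and 15.2 CPM in WT and at 6.81, 4.33 and 5.08 CPM in KD (-1.86, SE 0.40, adjusted p = 0.0446). The C3AR1 call was lost without WT replicate 2, KD replicate 2 or KD replicate 3, that of ITGAX without WT replicate 3 or KD replicate 2, and that of CPN1 with limma-voom or without any single library (adjusted p up to 0.0953, 0.0621 and 0.192 over these). In these fits, the log2 fold change was 2.64 to 2.89 for C3AR1, 2.23 to 2.27 for ITGAX and -2.10 to -1.38 for CPN1. Each call held without both libraries numbered 1. Each was lost without both numbered 2 (adjusted p = 0.327 for C3AR1, 0.225 for ITGAX and 0.327 for CPN1). The same was seen without both numbered 3 (0.214, 0.262 and 0.465). The log2 fold changes without both numbered 2 and 3 were 2.85 and 3.15 for C3AR1 and 2.43 and 2.32 for ITGAX. Those of CPN1 stayed within the range given.

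**Figure D3:**
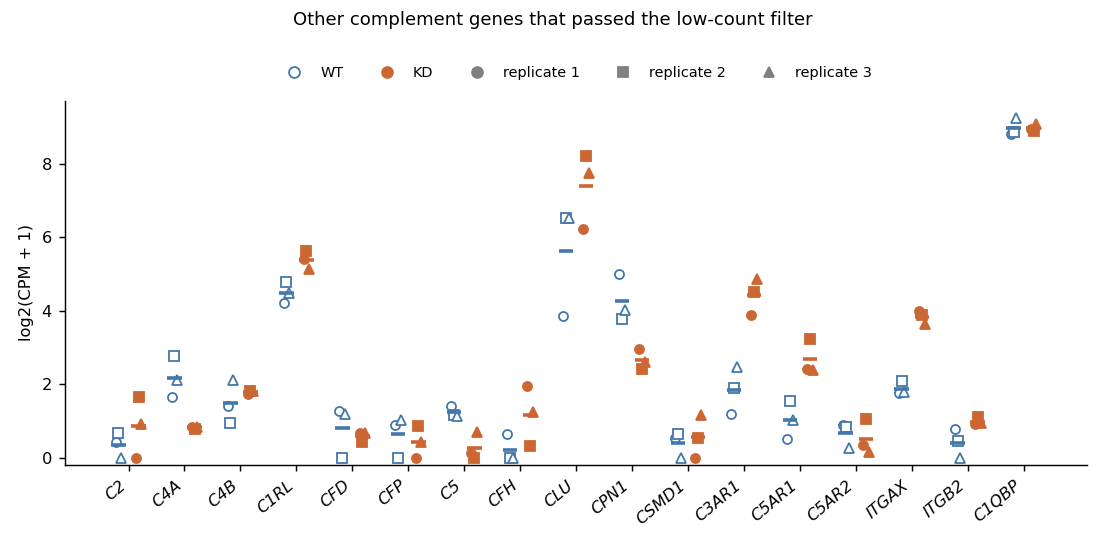
Levels of the 17 other complement genes that were tested, as log2(CPM + 1) in each library, with open blue symbols for WT, filled orange symbols for KD, the symbol shape for the replicate number and a bar for the mean of the log2 values. C3AR1 and ITGAX lie higher and CPN1 lower in all KD libraries, and for CLU the library numbered 1 is the lowest of its condition (13.4 CPM in WT and 72.9 CPM in KD).

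Many genes of the cascade were at 0 or low. C1QA, C1QB and C1QC, which encode the recognition subunits of C1, were at 0 in all libraries. None of the 8 lectin pathway genes was tested, 5 of them being at 0 throughout, and the highest single value was that of MASP2, 0.893 CPM in WT replicate 1. In the terminal pathway, C6, C7, C8A, C8B and C9 were at 0, and C5 ranged over 1.20 to 1.67 CPM without doxycycline and 0 to 0.611 CPM with it (adjusted p = 0.518). In the alternative pathway, CFD had the higher CPM of the 2 other genes and reached at most 1.41 CPM. Among the other soluble regulators, CLU had the highest CPM (WT libraries 13.4, 90.1 and 91.6 CPM, KD libraries 72.9, 292 and 213 CPM, adjusted p = 0.308 without the block). Of the other membrane regulators, CR1 and THBD were at 0 and CSMD1 was at most 1.23 CPM. C1QBP, a mitochondrial protein also described as a receptor for C1q, had the highest CPM of the receptors and of the list, with means of 506 ± 88.1 CPM for WT against 502 ± 34.4 CPM for KD (adjusted p = 0.991).

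Since C3AR1, C5AR1 and ITGAX are known from myeloid cells, the 7 macrophage and leukocyte markers are given beside them. Their summed level was 27.1 to 43.0 CPM in WT and 93.0 to 128 CPM in KD, nearly all of it from CD68 (25.3 to 39.0 CPM in WT and 88.3 to 125 CPM in KD, adjusted p = 0.00855), a lysosomal protein that other cells also express. CD68 was the 1 marker called among the 5 tested. LYZ (lysozyme) was also without overlap, at 0.473 to 0.874 CPM in WT and 1.97 to 2.17 CPM in KD, but was not called (log2 fold change 1.51, adjusted p = 0.447). The defining leukocyte gene PTPRC was at 0 in all libraries but WT replicate 3 (0.582 CPM), CD3E was at 0 in all, and CD14 was below 1 CPM in all. The summed levels of the fibroblast, endothelial and epithelial markers overlapped between conditions, with no marker called in these lists without the block. With the block, the fibroblast collagen gene COL1A1 was called lower in KD (log2 fold change -1.67, adjusted p = 0.00232). It was at 2.65, 85.0 and 58.1 CPM in WT and at 1.40, 19.3 and 17.7 CPM in KD, lowest in the libraries numbered 1.

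**Figure D4:**
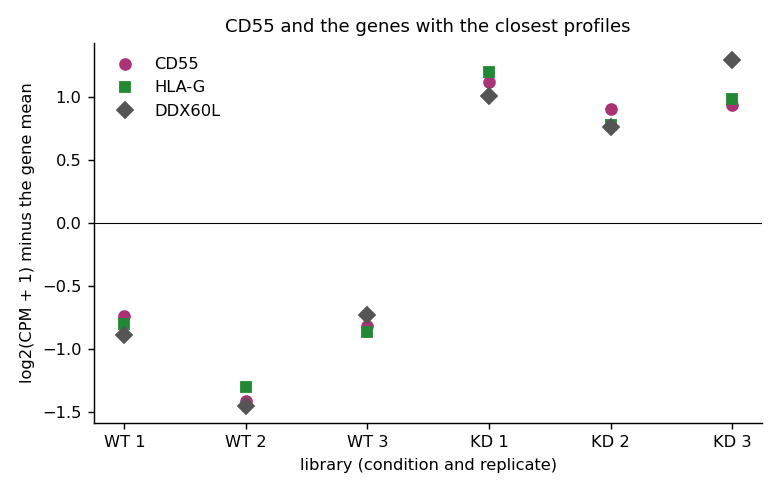
Level of CD55, HLA-G and DDX60L in each library, as log2(CPM + 1) minus the mean of that gene over the 6 libraries. All 3 genes are below their mean in WT and above it in KD, and WT replicate 2 is the lowest library for each.

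The genes whose profile over the 6 libraries was closest to that of CD55 were found among the other 15604 tested genes by the root mean square difference of mean-centered log2(CPM + 1). The closest was HLA-G, a nonclassical HLA class I gene, with a difference of 0.08. Its mean was 7.54 ± 1.52 CPM for WT against 32.5 ± 4.92 CPM for KD (log2 fold change 2.11, adjusted p = 0.00329), and its reads may in part be those of other class I genes, which are similar in sequence. Next was DDX60L, a DExD/H-box helicase gene related to the interferon-induced DDX60, with a difference of 0.18, at 5.19 ± 1.50 and 24.3 ± 4.69 CPM (2.23, adjusted p = 0.00717). In these libraries CD55 had a profile close to these genes, and the likeness is a description over 6 points that share their libraries.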

How the data were processed

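RNA-seq of 6 libraries was used. The authors mapped reads to hg19 with STAR and deposited expected counts per gene from RSEM, which divides reads that match several genes between them. Their strand setting is not given in the sources used here. Counts were rounded and tested in R 4.3.3 with edgeR 4.0.16 (filterByExpr, TMM scaling, quasi-likelihood test). Adjustment was by Benjamini-Hochberg over the 15605 genes kept, and an adjusted p under 0.05 was called. CPM are counts scaled to the TMM-corrected library total. CPM per kb divide by the canonical transcript of GENCODE v44 lifted to GRCh37, from which positions were taken. Differences within a replicate number used a pseudocount of 1 CPM. Promoter windows came from RefSeq (GRCh38.p14), were placed on GRCh37 by an exact match, and were printed up to the first annotated exon inside the window.

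The members and lists were chosen with earlier results of these data known. The named genes are the members, the called and the most abundant other complement genes of each role, STAG2, IRF9, the neighbors called, and the 2 genes closest in profile to each member called. Other genes were named after their values were seen. PECAM1 was not analysed here.

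Replicate numbers are shared between conditions. Deviations from the condition means correlated at 0.573, 0.410 and 0.334 between the libraries numbered 1, 2 and 3 (10567 genes with a mean of at least 5 CPM). Unlike-numbered pairs with a library numbered 1 were at -0.486 to -0.377. WT replicate 2 with KD replicate 3 was at 0.268, and WT replicate 3 with KD replicate 2 at 0.205. The libraries numbered 1 thus stood apart, and pairing of those numbered 2 and 3 is less certain. A replicate block, which assumes that the numbers pair the libraries, was fitted beside the main test. The study describes these samples as biologically independent, and the labels do not name their cultures. Floors of 3 counts cover counting error only. Alternatives were DESeq2 1.42.0, limma-voom (limma 3.58.1), other scalings and filters, the block, and leaving out libraries. The tests were checked on simulated data, in which no replicate number stood apart from the others as number 1 does here.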

Additional observations from a re-analysis of the deposited data

How the results depend on the processing

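The number of complement members called was 1 under every other setting with all 6 libraries, and 1 to 2 with one library left out (2 without WT replicate 1, CD55 and C1R). Leaving out both libraries of a replicate number was added after seeing the data, and gave 2 members called without those numbered 1 and 0 without those numbered 2 or 3, with edgeR on 2 libraries per condition. Over all genes tested, 404 were called, against 988 with DESeq2, 1103 without a filter on low counts, 1486 with the replicate block, 121 to 531 with one library left out, and 757, 57 and 25 without both libraries numbered 1, 2 and 3. Of the other complement genes, 3 were called, against 6 with DESeq2, 6 without the filter, 6 with the replicate block, 0 to 2 with one library left out (0 without KD replicate 2), and 4, 0 and 0 without both libraries numbered 1, 2 and 3. C3 turned to 0.57 without WT replicate 2 and to 0.66 without both libraries numbered 2, and CD46 to 0.032 without WT replicate 1. With one library left out, C3 ran from -0.86 to 0.57 and CD46 from -1.04 to 0.032. Neither gene was called under any of these. The number of members with an ISRE match or with an NF-kB match was 1 each in the whole window and 0 each in its last 150 bases, a shorter stretch. The replicate block, which pairs libraries by number, changed the call of no member. The cause of the other shifts was not tested. The median log2 fold change of all tested genes lay between -0.10 and 0.02 over all settings. Low counts limit C1S, C3, CFB and SERPING1.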
